A study of Mus musculus with 50 samples.

Results

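The Mef2 family comprises 4 of the 55385 genes in the deposited RNA tables, Mef2a, Mef2b, Mef2c and Mef2d, chosen by symbol. Their RNA was followed in 28 libraries of mouse motor neurons, and open chromatin around them in 22 ATAC-seq libraries (sequencing of DNA that the Tn5 transposase can reach). Motor neurons of E10.5 embryos were sorted from C57BL/6 mice carrying HB9-GFP, and gave whole-cell RNA. From E13.5 on (E13.5, P4, P13, P21, P56 and 2yr), nuclear RNA came from spinal cords of C57BL/6 mice with Chat-Cre;SUN1-GFP-3xMYC, in which Chat-Cre switches on a tagged nuclear envelope protein in cholinergic cells. These 18 in vivo libraries had no treatment. The 10 in vitro libraries held nuclear RNA of motor neurons differentiated from an embryonic stem cell line of the same Chat-Cre;SUN1-GFP-3xMYC genotype and grown on cortical astrocytes, sampled at DIV0, before the co-culture, and at DIV7 and DIV28. Tetrodotoxin (TTX), which blocks voltage-gated sodium channels, was present at 1 uM throughout the 28 days in 3 of the DIV28 libraries. Groups held 3 RNA libraries, or 2 at E13.5, P13, 2yr, DIV0 and DIV7, and each ATAC group held 2. A library titled as replicate 3 of DIV0 was treated as DIV28, since the name of its deposited table says DIV28 and the study describes 2 replicates at DIV0 and 3 at DIV28. Animals were pooled within a library, Chat-Cre also marks cholinergic cells other than motor neurons, and all cultures derive from 1 stem cell line. The study cites that Chat-Cre labels GABAergic and glutamatergic neurons as well, and did not find these significantly represented in its P56 RNA. Where separate cultures or animals are not stated, the p-values measure the spread between these libraries.

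MEF2 proteins are MADS-box transcription factors that bind A/T-rich DNA as dimers and were first known from muscle. In neurons they act in survival, synapse number and the response to activity: calcium entry frees them from class IIa histone deacetylases and lets calcineurin and kinases modify them. Mef2c is also active in the endothelium, muscle and immune cells, so its RNA in a purified preparation can come from more than 1 cell type. In bulk samples, fewer cells of a type and less RNA per cell cannot be told apart.

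Totals ranged from 2704682 to 21823500 counts per library (median 4292675). The summed level of 5 motor neuron markers (Chat, Slc5a7, Slc18a3, Isl1, Mnx1) lay between 767 and 5764 normalised counts, lowest at E13.5 (767 and 1602) and highest at DIV0. Normalised counts are expected counts divided by a size factor per library, so that libraries can be compared for 1 gene. At E13.5 the summed level of 5 endothelial markers (Pecam1, Cdh5, Kdr, Tek, Cldn5) was 11776 and 21964 normalised counts, above that of the motor neuron markers. It was 4000 to 5401 at P4, 273 and 414 at P13 and at most 58.2 in every library of the other groups. Erythroid markers followed the same ages (3426 to 3502 at E13.5, 567 to 756 at P4), muscle markers reached 846 to 850 at E13.5 and 119 to 1077 at P21, and oligodendrocyte markers peaked at P13 (10335 to 10488). Astrocyte markers (Gfap, Aqp4, Aldh1l1, Slc1a3) were 1638 to 2305 at P4 and 377 to 657 at P56. Interneuron markers (Gad1, Gad2, Slc32a1, Slc6a5, Slc17a6) were 584 to 905 at P4, 774 to 1001 at P56 and 793 to 883 at 2yr. Nuclei for RNA were purified on beads, for which the study's methods name blood vessel contamination at E13.5 and P4, whereas GFP+ nuclei for ATAC-seq were sorted by flow cytometry. The part of these other cells in the levels of the Mef2 genes was not tested. The E13.5 and P4 libraries are therefore given below with these values.

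The members lie on 4 chromosomes of mm10 (GRCm38): Mef2a (ENSMUSG00000030557.17) on the minus strand at chr7:67231163-67372858, Mef2b (ENSMUSG00000079033.10) on the plus strand at chr8:70139711-70167488, Mef2c (ENSMUSG00000005583.16) on the plus strand at chr13:83504034-83667080 and Mef2d (ENSMUSG00000001419.17) on the plus strand at chr3:88142372-88172086. Their DNA is shown first, because accessible regions near the genes are described below together with the binding sequence of the family itself. The MEF2 consensus searched was CTA, then 4 bases that are each A or T, then TAG, which reads the same way on both strands. Of 32817 RefSeq promoters (250 bases before to 50 after a start), 183 or 0.558% held it, against 100 or 0.305% for a rearrangement of the same letters (TAC, 4 A or T, GTA). The RefSeq promoter of Mef2a holds 1 match (CTAAAAATAG), which begins 2 bases before its start, and the RefSeq promoters of the other members hold none. A match outside these windows, in an open Mef2c promoter region, is given below. Capitals mark the MEF2 consensus or the AP-1 motif (TGANTCA, both strands, in 7.81% of the promoters). The first line gives the Mef2a promoter down to its consensus (GRCm38.p6, chr7:67372851-67373108, minus strand), and the others give windows around peak summits on the plus strand of the same build.
Mef2a promoter: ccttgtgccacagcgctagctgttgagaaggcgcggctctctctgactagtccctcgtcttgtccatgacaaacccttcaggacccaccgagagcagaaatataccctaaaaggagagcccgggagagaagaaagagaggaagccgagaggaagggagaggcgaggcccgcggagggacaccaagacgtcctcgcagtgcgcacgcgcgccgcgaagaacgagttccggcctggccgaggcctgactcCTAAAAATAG
Mef2a intron, open from P13 and at DIV28 (chr7:67287550-67287750): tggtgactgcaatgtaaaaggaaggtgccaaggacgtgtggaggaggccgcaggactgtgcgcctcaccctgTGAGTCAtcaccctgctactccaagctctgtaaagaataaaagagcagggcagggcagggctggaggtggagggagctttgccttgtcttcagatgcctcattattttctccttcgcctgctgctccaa
Mef2d upstream region, open from P4 and at DIV28 (chr3:88133355-88133555): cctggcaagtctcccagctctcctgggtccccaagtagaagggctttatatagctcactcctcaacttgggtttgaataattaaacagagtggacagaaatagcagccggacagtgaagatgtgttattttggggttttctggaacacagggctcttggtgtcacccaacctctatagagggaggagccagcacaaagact
Mef2c intron, open in vivo from P4 (chr13:83532056-83532256): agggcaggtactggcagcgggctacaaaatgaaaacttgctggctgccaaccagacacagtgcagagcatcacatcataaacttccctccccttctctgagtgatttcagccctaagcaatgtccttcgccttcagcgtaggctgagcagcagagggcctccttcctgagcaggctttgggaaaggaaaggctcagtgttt
Mef2c intron, open at DIV0 (chr13:83609096-83609296): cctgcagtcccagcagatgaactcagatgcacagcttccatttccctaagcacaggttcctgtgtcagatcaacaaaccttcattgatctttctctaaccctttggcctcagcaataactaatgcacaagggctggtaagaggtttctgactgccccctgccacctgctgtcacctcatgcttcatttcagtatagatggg
Mef2c intron, open from DIV7 in culture (chr13:83603973-83604193): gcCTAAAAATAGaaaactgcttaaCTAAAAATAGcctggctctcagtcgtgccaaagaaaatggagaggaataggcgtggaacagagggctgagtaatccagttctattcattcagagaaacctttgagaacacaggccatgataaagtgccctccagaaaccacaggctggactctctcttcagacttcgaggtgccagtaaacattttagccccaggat
The intron of Mef2c that was open from DIV7 in culture holds 2 copies of CTAAAAATAG, and the Mef2a intron holds 1 AP-1 motif (TGAGTCA). The other 3 windows hold neither motif.

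Mef2a was the member with the most RNA per length in most libraries. In TPM, a level corrected for gene length and library size, its group mean was lowest at E10.5, at 15.2 ± 5.11 (SD, n = 3), and highest at E13.5, at 88.8 ± 14.3 (SD, n = 2). By TPM the order was Mef2a, Mef2d, Mef2c, Mef2b in 22 of the 28 libraries. Mef2d came first in 4 libraries, 1 at E10.5, 1 at P21 and 2 at P56, and Mef2c stood above Mef2d in both E13.5 libraries. Within the family's summed TPM, Mef2a made up 49.9% to 82.5% on average per group and Mef2d between 9.97% at E13.5 and 43.7% at P56. Mef2c made up 34.6% ± 4.44 (SD, n = 2) at E13.5 and 1.73% ± 0.469 (SD, n = 3) at DIV28. The length that RSEM assigned to Mef2c varied from 185 to 3792 bases between libraries, which moves its TPM, so changes over time are given on counts.

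**Figure D1:**
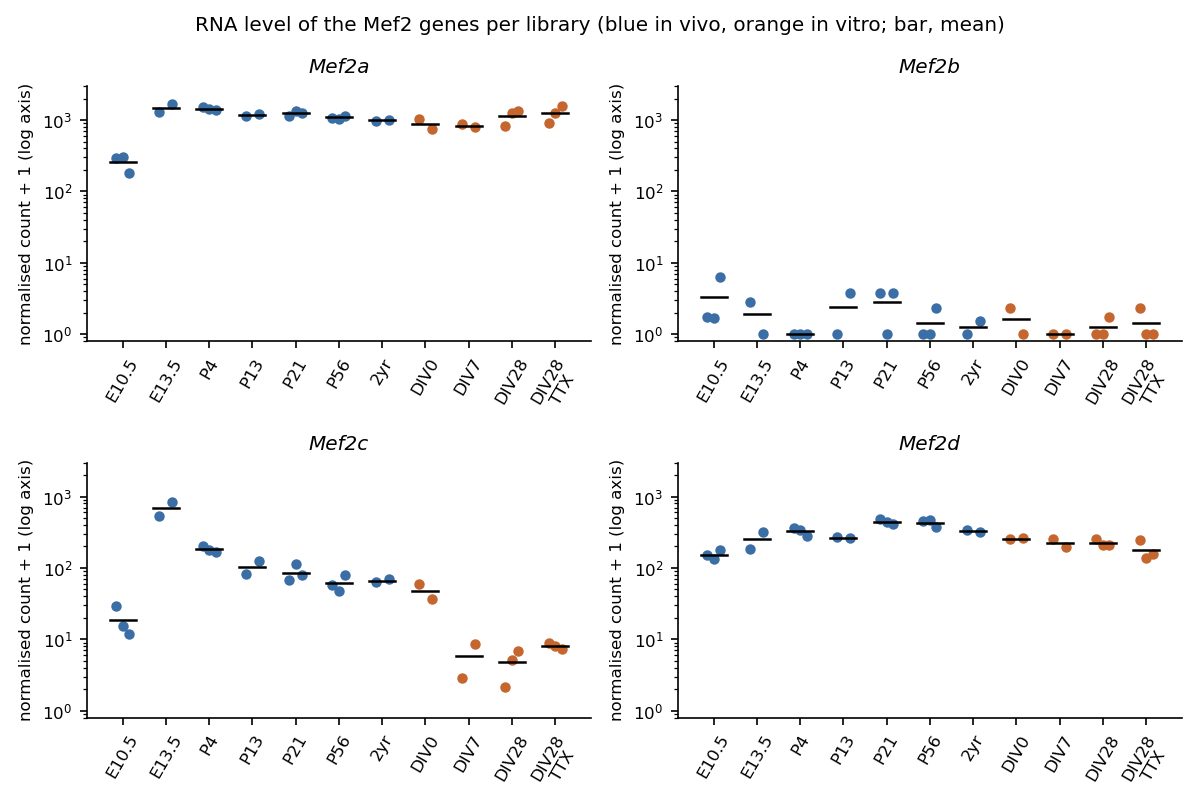
RNA level of each Mef2 gene in the 28 libraries, as normalised count plus 1 on a log axis, by age (blue) and culture condition (orange), with a bar at the group mean. Mef2a steps up after E10.5, Mef2c peaks at E13.5 and is under 8 normalised counts in every library from DIV7 on, Mef2d differs least between groups, and Mef2b stays at 7 counts or fewer per library.

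Mef2a, the most abundant member, was low only at E10.5. Its level there was 291.6, 303 and 182 normalised counts, and at E13.5 it was 1295 and 1662. It stayed at 1520.0, 1449 and 1379 at P4, 1155 and 1203 at P13, and 1147, 1324 and 1258 at P21. The E10.5 libraries lay below all others, without overlap, and at 2yr the level was 976 and 1013. From E10.5 to E13.5 Mef2a rose by 2.37 on the log2 scale (SE 0.17, adjusted p = 3.04e-09). Every adjusted p comes from the quasi-likelihood test of edgeR, adjusted by Benjamini-Hochberg over all genes of the fit, here 15030, unless another test is named. All 3 tested members rose over this interval, in which 70.0% of all genes tested were called in 1 direction or the other. At this step age cannot be told apart from the change from whole-cell to nuclear RNA and from HB9-GFP to Chat-Cre labelling. The purification changed too, from cell sorting to beads, and thoracic cord was used for RNA only at E10.5. Endothelial markers summed to at most 19.4 normalised counts at E10.5 and to 11776 and 21964 at E13.5. DIV0 neurons, whose RNA was nuclear too, held 1020.5 and 754 normalised counts of Mef2a, also above E10.5.

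After E13.5 no further step in Mef2a passed the test between neighbouring ages. The log2 fold change was 0.12 from E13.5 to P4 (adjusted p = 0.552), −0.21 from P4 to P13 (adjusted p = 0.377) and −0.01 from P13 to P21. Over the longer interval from P4 to P56, in which 42.8% of genes were called, Mef2a fell by 0.42 (SE 0.16, adjusted p = 0.0395). That call was lost on leaving out any 1 of the 6 libraries, with median-of-ratios factors (adjusted p = 0.051) and without the filter (adjusted p = 0.0726). From E10.5 to P21, with 84.4% of genes called, the rise was 2.27 (SE 0.16, adjusted p = 5.03e-10), and it was called under every alternative run. None of these alternatives removes the change of preparation after E10.5.

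Mef2c, the member known also from endothelium and muscle, had a sharp maximum at E13.5. It had 28.2, 14.5 and 10.7 normalised counts at E10.5, then 536 and 826 at E13.5 and 202, 177 and 166 at P4. It went on to 82.4 and 123 at P13, 65.7, 111 and 78.7 at P21, 56.4, 46.9 and 79.2 at P56 and 61.8 and 68.2 at 2yr. The groups from E10.5 to P13 did not overlap, and from P13 on neighbouring ages overlapped. The adult level stood above that of E10.5 in every library.

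The rise of Mef2c from E10.5 to E13.5 was 5.11 on the log2 scale (SE 0.33, adjusted p = 5e-10). From E13.5 to P4, where 69.6% of genes were called, it fell by 1.76 (adjusted p = 2.29e-05), and over E13.5 to P21, with 78.6% called, by 2.85 (SE 0.29, adjusted p = 9.49e-08). The log2 fold change from P4 to P13 was −0.75 (adjusted p = 0.0607, 34.4% of genes called), and it passed with median-of-ratios factors (adjusted p = 0.0423), without the filter (adjusted p = 0.0162), with DESeq2 (adjusted p = 0.0323) and with only the compared groups (adjusted p = 0.00472). From E10.5 to P21 the rise was 2.25 (SE 0.33, adjusted p = 4.33e-06). With the E13.5 and P4 libraries removed from the fit, all 3 members still passed for E10.5 to P21. That comparison uses none of these libraries, so their removal could change only the scaling and the estimated spread. It cannot address endothelial RNA or the change of preparation after E10.5.

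The ages at which Mef2c was high were those with endothelial RNA. Over the 28 libraries, log2 levels of Mef2c and of the summed endothelial markers had a Pearson r of 0.712, against 0.367 for Mef2a and 0.181 for Mef2d. This is a description over libraries that share age groups. At P56 and 2yr the endothelial sum was 8.25 to 16.1 normalised counts, with Mef2c between 46.9 and 79.2. Interneuron markers summed to 774 to 1001 at P56 and 793 to 883 at 2yr, and the part of such cells in Mef2c was not tested. At E10.5 the sum was 5.34 to 19.4, with Cdh5 at 0 in all 3 libraries and Mef2c between 10.7 and 28.2. In the ATAC data, the promoters of the 3 endothelial markers that could be placed had a peak in both libraries for 3 of 3 at E13.5, for 2 at P4 and with TTX, for 0 at P13 and for 1 in each other group, so these counts did not follow the endothelial RNA throughout. How much of the E13.5 and P4 level of Mef2c came from endothelial nuclei was not tested.

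**Figure D2:**
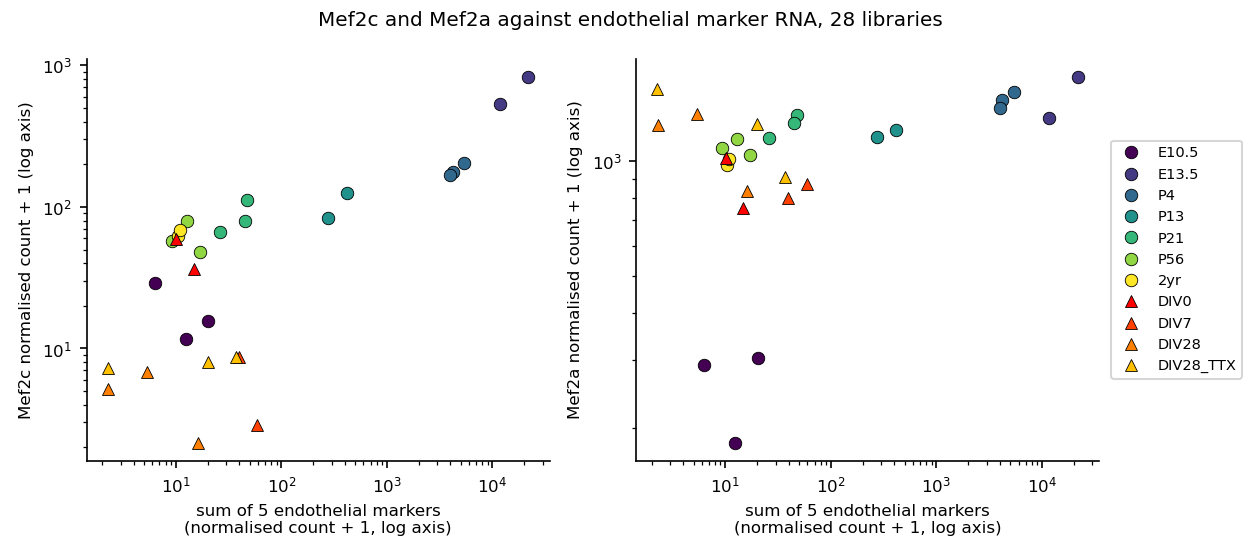
Mef2c (left) and Mef2a (right) against the summed level of 5 endothelial markers in the 28 libraries, both as normalised count plus 1 on log axes (circles in vivo, triangles in vitro). The 2 libraries of E13.5, at 11776 and 21964 for the markers, hold the most Mef2c, while adult libraries with 8.25 to 16.1 for the markers hold 46.9 to 79.2 of it.

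Mef2d, a member expressed in many tissues, differed least between groups. Its level was 149, 131 and 175 normalised counts at E10.5, 182 and 320.5 at E13.5, 358, 335 and 282 at P4, and 268 and 262 at P13. At P21 it was 484, 434 and 410.3, at P56 449.6, 469 and 375, and at 2yr 340.2 and 322. P21 and P56 were the highest ages and overlapped, and every library of both lay above every E10.5, E13.5, P4 and P13 library. From E10.5 to P21 Mef2d rose by 1.54 (SE 0.19, adjusted p = 4.98e-07), which was called under every alternative run. Here too, every alternative keeps the change of preparation after E10.5. From E13.5 to P21 it rose by 0.96 (SE 0.21, adjusted p = 0.000426).

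The single steps of Mef2d were small, and each call depended on single libraries. The rise from E10.5 to E13.5 was 0.59 (SE 0.20, adjusted p = 0.0155), and without the second E13.5 library the value was 0.10 (adjusted p = 0.692). Without the second E10.5 library it was 0.49 (adjusted p = 0.051), and with only the compared groups 0.67 (adjusted p = 0.0748). Under the study's limits, an unadjusted p under 0.001 and at least 2-fold, Mef2d was not called at this step. From E13.5 to P4 it was 0.51 (adjusted p = 0.036), and without the first E13.5 library 0.18 (adjusted p = 0.431). This call was also lost without the first (adjusted p = 0.106) or second P4 library (adjusted p = 0.0776), with median-of-ratios factors (adjusted p = 0.0848), without the filter (adjusted p = 0.416), with DESeq2 (adjusted p = 0.0891) and with only the compared groups (adjusted p = 0.127). From P13 to P21, with 21.6% of genes called, it was 0.65 (SE 0.21, adjusted p = 0.0307), and leaving out either P13 library gave adjusted p = 0.12 and 0.179. Without the first or second P21 library the adjusted p was 0.101 and 0.0594. After P21, of the 3 tested members 0 passed edgeR's adjusted test from P21 to P56 or from P56 to 2yr, 0 had an unadjusted p under 0.05, and DESeq2 called 0, where 0.0532% and 0.552% of all genes passed. From P56 to 2yr the log2 fold change was −0.31 (SE 0.20, adjusted p = 0.574) for Mef2d and −0.05 (SE 0.17, adjusted p = 0.942) for Mef2a.

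Mef2b was at the floor of the assay. It had 0 to 7 counts per library, the highest in 1 E10.5 library, and did not pass the filter of 5 CPM in any fit. Without the filter Mef2b was tested in every comparison and passed in none, with adjusted p-values of 0.387 or more. Mef2b shares 62 exonic bases (4.416% of its own) with Borcs8 on the same strand, so that these reads can be split between both genes. Lysmd4 covers 302 exonic bases of Mef2a and 1700113A16Rik 531 of Mef2d on the opposite strand.

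**Figure D3:**
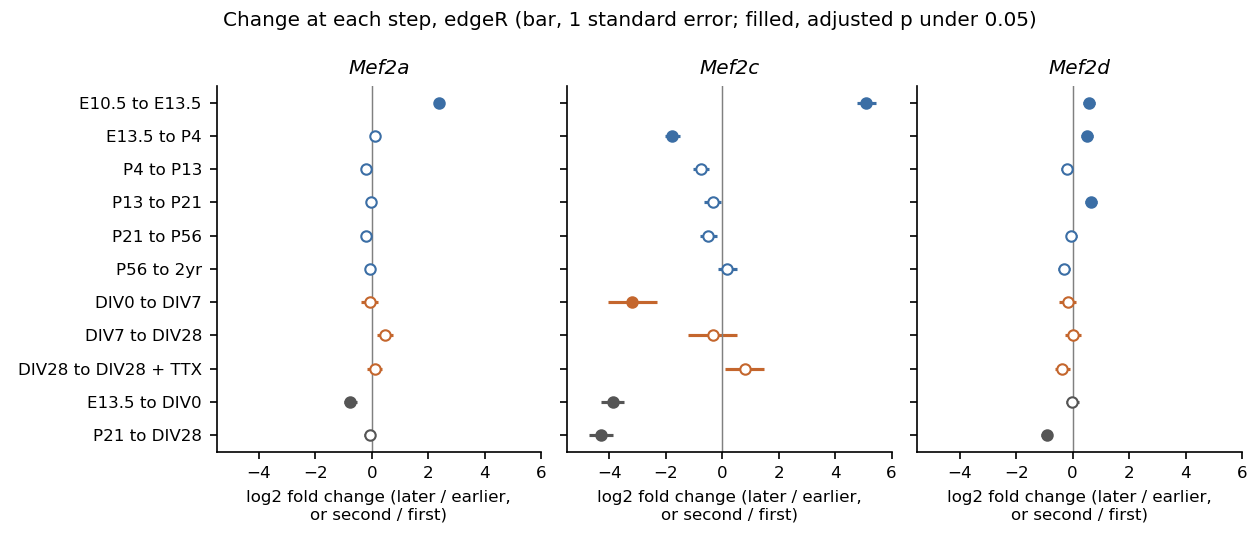
Log2 fold change of Mef2a, Mef2c and Mef2d at each step in vivo (blue), in vitro (orange) and between the systems (grey), from edgeR, with 1 standard error. Filled points passed an adjusted p under 0.05, with the rise of Mef2c by 5.11 at E10.5 to E13.5 and its change of −4.29 from P21 to DIV28 at the extremes.

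In culture the 3 tested members parted. Mef2a had 1020.5 and 754 normalised counts at DIV0, 872 and 798 at DIV7 and 833, 1241 and 1329 at DIV28, groups that overlapped. Its log2 fold change from DIV0 to DIV28 was 0.38 (adjusted p = 0.323). Mef2d had 253 and 258 at DIV0, 255 and 196 at DIV7 and 257, 210.0 and 209 at DIV28, and its log2 fold change was −0.16 (adjusted p = 0.69). Neither gene therefore passed a test between culture days, among 12890 genes tested.

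Mef2c fell to a few counts. It had 58.8 and 35.2 normalised counts at DIV0, then 1.88 and 7.65 at DIV7 and 1.16, 4.20 and 5.83 at DIV28. In raw terms these were 45 and 23 counts at DIV0 and 22 counts in all over the 3 DIV28 libraries. From DIV0 to DIV28, with 38.3% of genes called, Mef2c fell by 3.51 (SE 0.70, adjusted p = 0.00221). Without the first DIV0 library the fall was 3.09 and missed the limit (adjusted p = 0.0544). Most of it lay between DIV0 and DIV7 (fell by 3.18, SE 0.86, adjusted p = 0.0198, 23.0% of genes called), a call lost without any 1 of the 4 libraries. From DIV7 to DIV28, with 17.8% of genes called, 0 of 3 members passed edgeR's adjusted test, 0 had an unadjusted p under 0.05 and DESeq2 called 0. In the cultures endothelial markers summed to between 1.26 and 58.2 normalised counts, and were 9.15 and 13.8 at DIV0. Motor neuron markers summed to 4675 to 5764 at DIV0 and 1634 to 1987 at DIV28. Interneuron markers summed to 13.1 to 16.8 at DIV0 and 377 to 623 at DIV28. The part of the cell mixture in the fall of Mef2c was not tested. Grouped by its title, the disputed library would be a DIV0 sample. Mef2c then missed the 5 CPM filter and was not tested, and from DIV0 to DIV28 edgeR called 0 of 12348 genes, with 2388 at an unadjusted p under 0.05 (DESeq2 was not run on this grouping). Without the filter in the same grouping, an alternative chosen after seeing the data, Mef2c had −3.39 (SE 1.202, adjusted p = 0.0784).

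TTX moved no member past the test. Mef2a was at 911, 1251 and 1550 normalised counts with TTX, Mef2c at 7.73, 7.06 and 6.31 and Mef2d at 242, 137 and 155. Mef2a and Mef2d overlapped their untreated groups, and the Mef2c levels lay above their untreated group by few counts (5 to 13 per library). The log2 fold changes were 0.10 (SE 0.26, adjusted p = 0.981) for Mef2a, 0.80 (SE 0.69, adjusted p = 0.907) for Mef2c and −0.36 (SE 0.25, adjusted p = 0.852) for Mef2d. Across all genes 0.209% were called. Of the 3 members 0 had an unadjusted p under 0.05 and DESeq2 called 0. With the replicate number as a block, all genes called went from 27 to 166, and 0 members were called. The blocked log2 fold changes were −0.39 (SE 0.19, adjusted p = 0.421) for Mef2d, 0.09 (SE 0.21, adjusted p = 0.9) for Mef2a and 0.84 (SE 0.75, adjusted p = 0.696) for Mef2c. Motor neuron markers summed to 909 to 1564 normalised counts with TTX and 1634 to 1987 without. Without the block, 0 of these 5 genes passed edgeR's adjusted test, 2 had an unadjusted p under 0.05 and DESeq2 called 1. The part of the cell mixture in the TTX values was not tested.

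Tissue and culture were compared at their early and late stages. Mef2c at DIV0 lay above every E10.5 library, overlapped P56 and lay below E13.5. From E13.5 to DIV0, where 63.0% of 15521 genes were called, Mef2c was lower by a log2 fold change of −3.87 (SE 0.41, adjusted p = 6.14e-08) and Mef2a of −0.76 (SE 0.23, adjusted p = 0.00683). Endothelial markers summed to 11776 and 21964 normalised counts at E13.5 and to 9.15 and 13.8 at DIV0, and their part in this difference was not tested. The Mef2a call was lost without the second E13.5 library (−0.55, adjusted p = 0.0922) and without the second DIV0 library (−0.63, adjusted p = 0.0651), and Mef2d had −0.01. From P21 to DIV28, with 52.1% of genes called and 25.2 to 46.4 normalised counts of endothelial markers at P21, Mef2c had −4.29 (SE 0.42, adjusted p = 3.32e-08) and Mef2d −0.92 (SE 0.18, adjusted p = 0.000248). Mef2a had −0.08 (adjusted p = 0.76).

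The change over time itself was tested between the systems. Relative to E10.5 to P21, the change from DIV0 to DIV28 was lower for all 3 members, by −5.71 (SE 0.59, adjusted p = 2.76e-08) for Mef2c, −1.87 (SE 0.28, adjusted p = 5.23e-06) for Mef2a and −1.70 (SE 0.28, adjusted p = 1.35e-05) for Mef2d. These calls held in all 19 alternatives, and 67.6% of all genes were called. The in vivo arm of this contrast runs from whole-cell to nuclear RNA, with a change of label and purification, while both ends of the culture arm are nuclear. Relative to E13.5 to P21, nuclear throughout, with 63.4% of genes called, Mef2d was lower by −0.91 (SE 0.29, adjusted p = 0.00923). The Mef2d call was lost without the filter (adjusted p = 0.0639) and with the disputed library grouped by its title (adjusted p = 0.0588). Mef2a was higher by 0.68 (SE 0.30, adjusted p = 0.0488), a call lost in 13 of 18 alternatives. Among these the replicate block gave 0.68 (adjusted p = 0.0621), and leaving out replicate 2 of E13.5, 1 of P21, 2 of DIV0, or 2 or 3 of DIV28 gave adjusted p-values between 0.057 and 0.225. Mef2c had −0.42 (adjusted p = 0.528).

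Genes whose products regulate MEF2 were described beside the family. For these and the targets below, E10.5 to P21 runs from whole-cell to nuclear RNA, with a change of label and purification. Age cannot be told apart from these differences. E13.5 to P21, nuclear throughout, is given as well, though E13.5 held the endothelial RNA described above. Among class IIa histone deacetylases and Cabin1, corepressors that hold MEF2 silent, 2 of 5 rose and 0 fell from E10.5 to P21, where 84.4% of all genes were called (median log2 fold change 0.30, against 0.12 over all genes). Hdac9 held 42.9 ± 3.04 normalised counts at E10.5 and 333 ± 36.7 at P21 (both SD, n = 3), a rise of 2.95 (SE 0.20, adjusted p = 2.33e-10), and Hdac4 rose by 0.56. Of the 5 genes, 0 rose and 3 fell from E10.5 to E13.5, with 70.0% of all genes called. From E13.5 to P21, with 78.6% called, 4 rose and 0 fell. In culture Hdac9 rose as well, from 74.0 ± 1.23 (SD, n = 2) at DIV0 to 762 ± 108 (SD, n = 3) at DIV28, by 3.39 (SE 0.27, adjusted p = 5.06e-06), while Hdac4 and Hdac5 each fell by 1.10. With TTX Hdac9 was at 431 ± 47.5 (SD, n = 3), and 0 of 5 genes of the list passed edgeR's adjusted test, 2 had an unadjusted p under 0.05 and DESeq2 called 1. These fits had no replicate block, so the pairing of DIV28 and TTX libraries was not used.

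Of 13 calcium-dependent kinases and calcineurin subunits, which link calcium to MEF2, 9 rose and 1 fell from E10.5 to P21, with 84.4% of all genes called (median 2.30 against 0.12). Camk2b rose by 6.51 (SE 0.30), Camk1d by 3.92 and Camk2d by 3.88. From DIV0 to DIV28, 5 of 12 rose and 1 fell, with 38.3% of all genes called (median 0.60 against 0.06), led by Camk4 (3.91, SE 0.43), Camk1 (2.72) and Ppp3r1 (1.41), which encodes the regulatory subunit of calcineurin. Camk2b was lower at DIV28 than at P21 by −1.79 (SE 0.23, adjusted p = 1.32e-06). MAP kinases, their activators and Cdk5, kinases that modify MEF2, gave 3 up and 3 down of 7 from E10.5 to P21 (Mapk7 −2.95, Map2k6 −2.30, Mapk14 −0.86) and 3 up and 2 down in culture (Map2k6 −2.03, Map2k3 1.79, Cdk5 1.67). From E13.5 to P21, with 78.6% of all genes called, 8 of the 13 calcium-dependent genes rose and 2 fell (median 0.72 against 0.15). Of the 7 genes of the MAP kinase list, 4 rose and 2 fell.

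Of 6 coactivators, 1 rose and 4 fell from E10.5 to P21 and 1 rose and 5 fell from DIV0 to DIV28. Ppargc1a, the PGC-1alpha coactivator of mitochondrial genes, was the one that rose, by 3.94 in tissue and by 2.04 in culture, and Maml1 fell by 3.18 in tissue and fell by 1.76 in culture. Of Srf, the other branch of the MADS-box family, and its 3 partners, 2 rose and 2 fell in tissue (Srf −2.91, Mrtfb 1.58, Elk1 1.49) and 1 rose in culture (Mrtfb 2.03). These shares stand beside 84.4% and 38.3% of all genes called in the same comparisons. From E13.5 to P21, with 78.6% of all genes called, 2 of the 6 coactivators rose and 2 fell. Of Srf and its partners 2 rose and 1 fell.

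Genes known as MEF2 targets in neurons were called at a share near that of all genes in tissue. From E10.5 to P21, where 84.4% of all genes were called, 8 of 12 tested rose and 2 fell (median 1.33 against 0.12). Kcna1, a potassium channel, went from 0 to 1.53 normalised counts per library at E10.5 to between 1309 and 1399 at P21, Lgi1 rose by 5.57 (SE 0.47) and Jun fell by 2.47 (SE 0.26). From E13.5 to P21, with 78.6% of all genes called, 7 of 12 rose and 4 fell (median 0.64 against 0.15). From DIV0 to DIV28, with 38.3% of all genes called, 8 of 12 rose and 1 fell (median 1.73 against 0.06). Bdnf, a neurotrophin induced by activity, went from 0 to 1.31 at DIV0 to between 48.5 and 117 at DIV28, and Pcdh17 rose by 5.77 (SE 0.35). At DIV28 against P21, with 52.1% of all genes called, Jun was higher by 4.04 (SE 0.29, adjusted p = 3.54e-10) and Klf6 by 3.06 (SE 0.19, adjusted p = 6.21e-11), both immediate early genes, and Kcna1 lower by −2.52 (SE 0.26). With TTX, where 0.209% of all genes were called, 0 of the 12 target genes passed edgeR's adjusted test, 3 had an unadjusted p under 0.05 and DESeq2 called 0. These fits did not pair the DIV28 and TTX libraries, and counts for the targets with the replicate block are not given.

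The genes whose pattern over the 28 libraries was most like each member were found by Pearson r of log2 levels among 15560 genes. For Mef2a they were Sgms1 (0.953), a sphingomyelin synthase, Cd2ap (0.949), an actin adaptor, and Thoc1 (0.943), an mRNA export factor. In this order their mean normalised counts were 40.2, 151 and 168 at E10.5 and 371, 735 and 959 at E13.5. For Mef2c they were Calcrl (0.929), the receptor partner for CGRP and adrenomedullin, Kcna5 (0.914), a potassium channel, and Hba-a1 (0.909), alpha globin. For Mef2d they were Pstpip2 (0.893), Grin2d (0.884), an NMDA receptor subunit, and Gm15624 (0.883). Between the members themselves r was 0.362 for Mef2a with Mef2c, 0.469 for Mef2a with Mef2d and 0.471 for Mef2c with Mef2d. The points share age groups and library depth, and E10.5 is the only whole-cell group, whose part in these values was not tested.

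In chromatin, 113 regions with a peak in at least 1 ATAC library lay in the 4 genes or within 10000 bp of them, 41 each at Mef2a and Mef2c, 15 at Mef2b and 16 at Mef2d. Of these 10 were open in every library, 55 in both libraries of at least 1 group and 37 in 1 library only. For some of those open in every library, the nearest gene start belonged to a neighbouring gene. These neighbours were 1700112J16Rik at Mef2a, Rfxank and Tmem161a at Mef2b, and 1700113A16Rik at Mef2d. The regions upstream of Mef2b lay nearest to the start of Nr2c2ap. Regions were assigned by position alone, and which gene each one serves was not tested. MACS2 gives each peak a fold enrichment, its summit signal over the local background of that library, and no read counts, so no test was made. Peak numbers per library ran from 80386 to 224328, and libraries with more peaks can show more regions. The E10.5 ATAC libraries were made from whole HB9-GFP cells, and all others from sorted nuclei with a different ATAC protocol. Here and below, these differences cannot be told apart from age where E10.5 is compared. The Mef2a promoter was open in all 22 libraries, with fold enrichment from 6.43 to 16.8, and so was the Mef2d promoter, from 3.90 to 15.6. At Mef2b, whose RNA was at 7 counts or fewer, the promoter had a peak in 20 libraries, up to 33.4 at E13.5. Of the 3 RefSeq promoter windows of Mef2c, only the second (chr13:83523406-83523705) had peaks, in 17 of the 22 libraries. Its fold enrichment was 12.5 and 9.54 at E13.5, 5.49 and 6.15 at P21 and 5.18 and 5.59 at DIV28. The other windows had none in any library. The wider merged region around the second window (chr13:83523316-83526225) was open in all 22 libraries. It holds the MEF2 consensus CTAAAATTAG, 60 bp from its summit and outside that window.

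**Figure D4:**
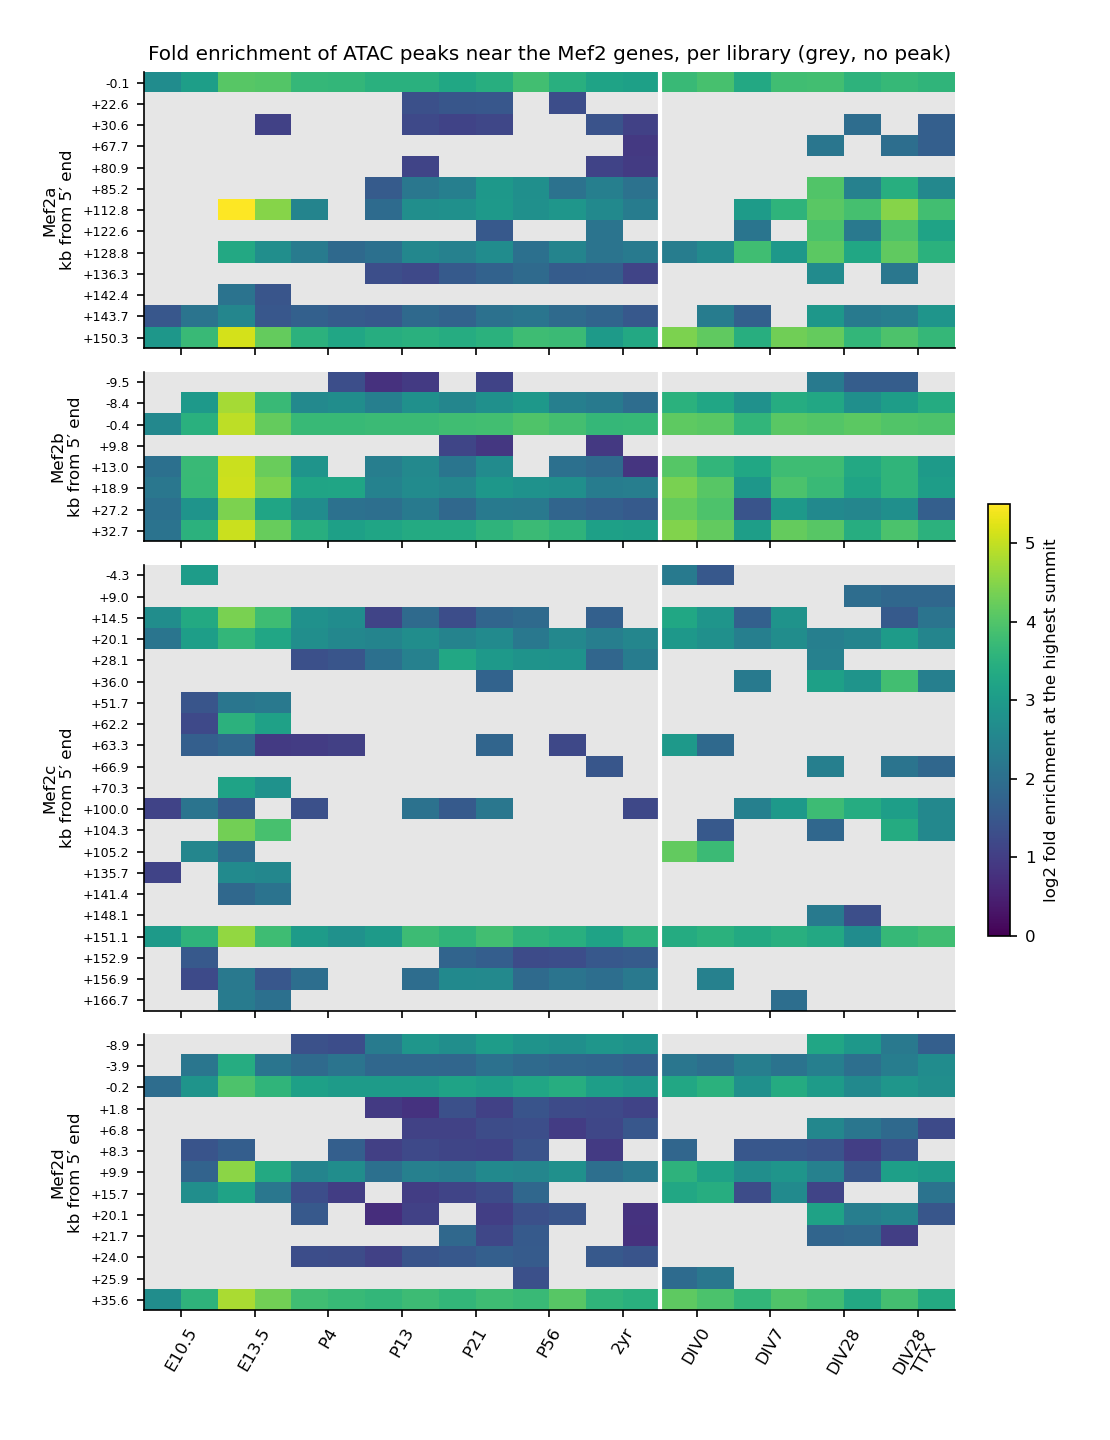
Log2 fold enrichment at the highest summit of the 55 regions near the Mef2 genes that were open in both libraries of at least 1 group, in 22 ATAC libraries (grey, no peak), with regions ordered by distance from the gene's 5′ end in kb. The Mef2a and Mef2d promoters are open throughout, and the Mef2c block shows regions open at E13.5 that are grey from P4 on.

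Of the regions near the family open at E10.5 or E13.5, 7 of 50 were open in both libraries of E13.5 and neither of E10.5, and 0 the other way, where 31.9% and 4.65% of all regions behaved so. Mef2c had 4 of the 7, and also 28 of the 50 regions. From E13.5 to P21, 11 of 66 were gained and 8 lost, against 17.4% and 17.7% of all regions. Mef2c had 7 of the 8 losses, among its 21 regions, and Mef2d had 5 of the gains, among its 12 regions. From E10.5 to P21, 13 of 67 were gained and 0 lost, against 31.0% and 5.61%, and from DIV0 to DIV28 11 of 50 were gained and 5 lost, against 31.2% and 8.30%. TTX gained 1 of 52 and lost 1, both at Mef2c, against 3.56% and 2.79%. An accessible Mef2c region at chr13:83573876-83574892, 731 bp from a Mef2c start, was open only in the E13.5 libraries, with fold enrichment 9.17 and 7.03. These nuclei were sorted for GFP apart from the bead-purified RNA samples, and which cells carry this region was not tested.

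Some regions had peaks only from a postnatal age on. The Mef2a intron at chr7:67287068-67288007, whose AP-1 motif is printed above, had no peak at E10.5, E13.5, P4, DIV0 or DIV7. It had fold enrichment 2.998 and 4.51 at P13, 5.20 and 7.59 at P21, 16.1 and 5.36 at DIV28 and 10.9 and 5.95 with TTX. The region 8917 bp upstream of Mef2d (chr3:88133103-88133928) was closed at E10.5, E13.5, DIV0 and DIV7. It had 2.58 and 2.46 at P4, 6.57 and 8.24 at P21, 9.51 and 7.62 at DIV28 and 4.66 and 3.16 with TTX, so both regions had no peak at DIV0 and DIV7 and peaks at DIV28.

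Mef2c introns differed between the systems. The one at chr13:83531940-83532430 rose in vivo from 2.52 and 2.74 at P4 to 9.84 and 7.77 at P21, and had 1 peak in the cultures, 5.36 in the first DIV28 library. The one at chr13:83608983-83609697 had its highest values at DIV0, 17.98 and 13.4, with 5.75 in the second E10.5 library, 3.84 in the first E13.5 library and none elsewhere. The one with 2 MEF2 consensus sites (chr13:83603911-83605273) had no peak at DIV0, then 5.23 and 7.77 at DIV7, 13.6 and 10.6 at DIV28 and 8.52 and 5.95 with TTX, and where it had a peak in vivo the value was 2.16 to 4.54. In these culture samples Mef2c RNA was at 13 counts or fewer per library. Regions with the consensus anywhere numbered 7 of 113, 2 at Mef2a, 4 at Mef2c and 1 at Mef2d.

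The binding sequence of the family was also counted in open chromatin across the genome. This count does not measure binding or activity of MEF2 proteins, and no test was made. The share of the 10000 highest distal peaks (summit over 2000 bp from a start) with the MEF2 consensus within 100 bp of the summit was 0.26% and 0.28% at E10.5, 0.43% and 0.58% at E13.5 and 0.63% and 0.66% at P4. It was 1.24% and 1.31% at P13, 1.48% and 1.41% at P21, 1.25% and 1.15% at P56 and 1.63% and 1.08% at 2yr. The libraries from P13 on lay above all earlier ones, while the rearranged sequence stayed between 0.08% and 0.27% in all 22 libraries. In culture the share was 0.50% and 0.48% at DIV0, 0.74% and 0.50% at DIV7, 1.02% and 1.15% at DIV28 and 0.86% and 0.73% with TTX. The 95% counting intervals of the first DIV28 and TTX libraries overlapped (0.841% to 1.237% and 0.697% to 1.061%). Those of the second libraries did not (0.959% to 1.379% and 0.581% to 0.917%). Mean GC content near the summits was 46.9% to 50.9% per group. Over the same samples AP-1 sites went from 8.51% and 8.31% at DIV0 to 67.1% and 61.4% at DIV28 and 55.3% and 44.1% with TTX.

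**Figure D5:**
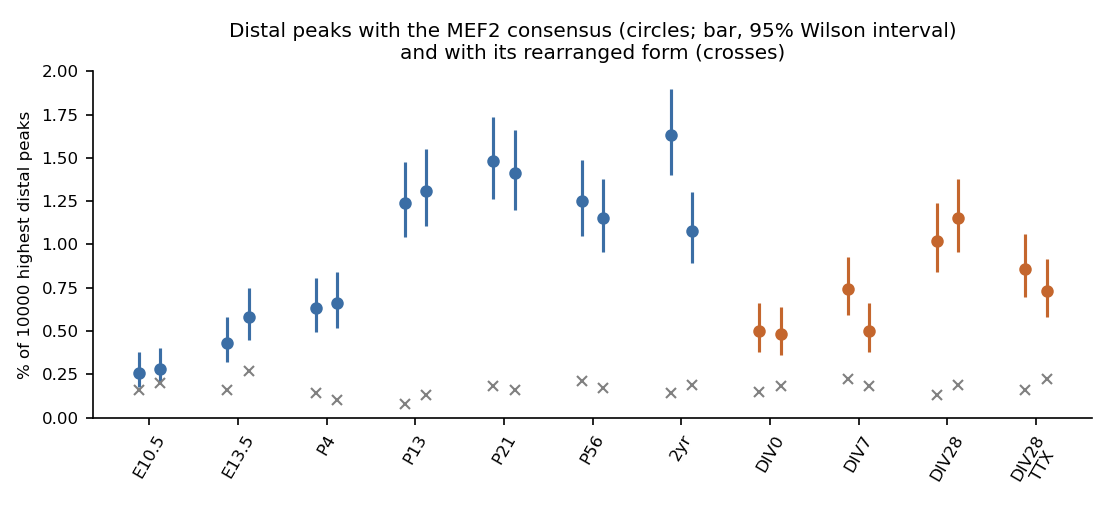
Share of the 10000 highest distal peaks of each ATAC library that hold the MEF2 consensus (circles, with 95% Wilson interval for counting error only) and the rearranged sequence (crosses), by age (blue) and culture condition (orange). MEF2 shares run from 0.26% at E10.5 to 1.63% at 2yr, and the crosses stay at 0.27% or less.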

How the data were processed

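RNA was measured in 28 libraries and open chromatin in 22. Per the submitters' notes and methods, the authors trimmed reads with Trim Galore and cutadapt 0.6.2, aligned RNA reads to mm10 with STAR 2.5.2b and deposited expected counts and TPM per gene from RSEM 1.3.0, without further normalisation. For ATAC-seq, reads were aligned with BWA, and peaks were called with MACS2 2.2.7.1 in each library. The deposited peak lists give each peak's fold enrichment, which is a ratio within 1 library, and −log10 p and −log10 q, with no read depth. Here the expected counts were rounded to whole numbers. A gene was kept if every replicate of 1 group or more reached 5 CPM, and edgeR 4.0.16 (TMM, quasi-likelihood test) was run in R 4.3.3 on the 18 in vivo libraries, on the 10 in vitro libraries and on the 25 without TTX, with 1 coefficient per group. A call is a Benjamini-Hochberg adjusted p under 0.05 over all genes of the fit. Normalised counts use median-of-ratios factors from 12842 genes over all 28 libraries. The test was tested on simulated data. Peaks overlapping by 1 bp were merged over libraries into 565983 regions. A region counts as gained when both libraries of the later group and neither of the earlier one hold a peak, and the reverse as lost, as a share of regions in either group. Sequences are from RefSeq promoters and GRCm38.p6, which is mm10.

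The methods name edgeR, the 5 CPM filter and limits of p under 0.001 and 2-fold, which were tried as an alternative. Other alternatives were DESeq2 1.42.0, median-of-ratios factors, no filter, only the compared groups, a replicate block, leaving out each replicate, and grouping the disputed library by its title. A fit without the E13.5 and P4 libraries, and the grouping by title without the filter, were added after seeing the data. Deviations from the group means correlated at 0.582, 0.505 and 0.665 between same-numbered DIV28 and TTX libraries, so these numbers were taken as pairs from the data, since the methods do not state a pairing. The genes named are the 4 members, the 3 genes most correlated with each, and of each list the 3 called genes with the largest change. Hdac, kinase and other values named beyond this rule were chosen after they were seen. The members, gene lists and markers were chosen with earlier results of these data known.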

Additional observations from a re-analysis of the deposited data

Results flagged for a closer look

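A test of the difference between tissue and culture picked out 5 values. The change from DIV0 to DIV28 was below that from E10.5 to P21 by −5.71 (log2) for Mef2c, −1.87 for Mef2a and −1.70 for Mef2d (edgeR, adjusted p = 2.76e-08, 5.23e-06 and 1.35e-05). All 3 tested members showed this direction, and 67.6% of all genes were called in the same test. Against E13.5 to P21, where RNA was nuclear at both ends, the difference was −0.91 for Mef2d (adjusted p = 0.00923) and 0.68 for Mef2a (adjusted p = 0.0488), so the sign for Mef2a was the opposite of that in the first contrast. E13.5 libraries held 11776 and 21964 normalised counts of endothelial markers, and the part of these cells in the differences was not tested.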

How the results depend on the processing

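Of 657 values of member fold changes under the alternatives, 568 kept their direction and their side of the limit, 57 lost a call, 6 gained one and 26 changed sign, all 26 without a call. Where a value changed below, the cause was not tested. The calls of all 3 members for E10.5 to P21 and for its difference from culture held under every alternative run. All alternatives keep the change from whole-cell to nuclear RNA, of label and of purification after E10.5, so none could address it.

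Under the study's limits 2 members were called from E10.5 to E13.5, 1 from E13.5 to P4, 1 from E13.5 to P21, 1 from P4 to P56, 1 from E13.5 to DIV0, 1 from P21 to DIV28, and 0 from P13 to P21, from DIV0 to DIV7 and for the difference from E13.5 to P21. Median-of-ratios factors gave 1 for E13.5 to P4, P4 to P13, P4 to P56 and that difference, and moved the median of all genes by 0.107 from E10.5 to E13.5 and by −0.110 from E13.5 to P4. No filter gave 1, 1, 1 and 0 for the same 4 comparisons. DESeq2 gave 1 for E13.5 to P4, P4 to P13 and the difference. Only the compared groups gave 1, 2 and 1 for these. Grouping the disputed library by its title gave 0 for DIV0 to DIV7, DIV0 to DIV28 and the difference, but Mef2c missed the filter in the culture fit and was not tested there. Without the filter in that grouping (chosen after seeing the data) it was tested, and the counts were 0, 0 and 0, and 1 for E13.5 to DIV0. Leaving out 1 replicate gave 2 to 3 members for E10.5 to E13.5, 1 to 2 for E13.5 to P4, 0 to 1 for P13 to P21, 1 for P4 to P56, 0 for DIV0 to DIV7, 0 to 1 for DIV0 to DIV28, 1 to 2 for E13.5 to DIV0 and 1 to 2 for the difference.

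Uncalled fold changes turned sign as follows. For Mef2a from E13.5 to P4 they became −0.11 without the filter and ran from −0.04 to 0.32 with 1 replicate left out. From P13 to P21 Mef2a had 0.08 with median-of-ratios factors and DESeq2, and 0.04 with the replicate block, only the compared groups and without the E13.5 and P4 libraries (chosen after seeing the data), and −0.056 to 0.04 with 1 replicate left out. Grouped by title, Mef2a had −0.02 from DIV0 to DIV28, and without the filter as well Mef2d had 0. Mef2d from E13.5 to DIV0 had 0.04 with median-of-ratios factors and DESeq2 and 0.03 with only the compared groups. With 1 replicate left out, Mef2a had up to 0.02 for P56 to 2yr, and ran from −0.26 to 0.11 for E13.5 to P21, −0.28 to 0.17 for DIV0 to DIV7, −0.08 to 0.30 for TTX and −0.18 to 0.10 for P21 to DIV28. Mef2d ran up to 0.05 for P21 to P56, from −0.14 to 0.24 for DIV7 to DIV28 and from −0.25 to 0.49 for E13.5 to DIV0, and Mef2c from −0.91 to 1.06 for DIV7 to DIV28 and from −0.79 to 0.10 for the difference from E13.5 to P21.

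With the replicate block, which pairs DIV28 and TTX libraries, 0 members were called for TTX, 1 for the difference from E13.5 to P21, where Mef2a lost its call, and no other call of a member changed. In vivo, 48 same-numbered pairs had correlations from −0.137 to 0.151, so these share only a number. A window of 50000 bp gave 193 regions, the 100000 highest peaks 72, and 5000 in place of 10000 distal peaks moved the MEF2 share at P4 to 0.48%. Mef2b and, from DIV7 on, Mef2c had 13 counts or fewer per library, so their values are imprecise.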
